A study of Mus musculus with 9 samples.

Results

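Transcripts of 10 regulators of signalling from tyrosine kinase receptors through RAS, most of them known as its brakes, were followed in sorted mouse bone marrow progenitors. The genes were the Sprouty and Spred family members Spry1, Spry2, Spred1 and Spred2, the ERK phosphatase gene Dusp6, the ubiquitin ligase genes Cbl and Cblb, the neurofibromin gene Nf1, and the tyrosine phosphatase genes Ptpn6 and Ptpn11. They were taken as the 10 of 18193 measured genes that carry these symbols, and 31 probe sets, the groups of short probes from which the array reads 1 transcript level each, list 1 of them as their single gene symbol. Each gene is read from its brightest probe set, the one with the highest mean over all arrays, and values are log2 intensities, a scale on which 1 unit is a doubling within a probe set.

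Messenger RNA was measured on 9 Affymetrix arrays, 3 in each of 3 groups. LSK cells were sorted as Sca1+ and cKit+ cells without lineage markers, the fraction that holds hematopoietic stem cells and multipotent progenitors, from WT mice, which here are Ncstn flox/flox animals with no Cre transgene. Granulocyte-monocyte progenitors (GMP), sorted as FcgammaRII/III+ and CD34+ cells that were Sca1-, cKit+ and lineage negative, came from WT mice of the same genotype and from NcstnKO littermates, which were Ncstn flox/flox Mx1-cre+. Ncstn encodes nicastrin, a subunit of the γ-secretase complex that cuts Notch receptors and other membrane proteins. Mx1-Cre is a recombinase driven by an interferon-inducible promoter, so deletion is not limited to blood cells. All mice, the controls included, had been given polyIC, which induces interferon, at 20 µg per g of body weight in 3 injections that began at 14 days of age, and were analysed 4 weeks after injection at 6 weeks of age. The transgene was present in the NcstnKO mice and absent from the others, so its effect and the loss of nicastrin cannot be told apart.

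Cytokine receptors such as Kit and Flt3 switch RAS on through adaptor proteins and exchange factors, and active RAS drives the RAF, MEK and ERK kinases. The pathway is held back at several levels. Cbl and Cblb tag active receptors and their adaptors with ubiquitin, Ptpn6 (SHP-1) removes phosphate from receptors and JAK kinases, Sprouty and Spred proteins block RAS or RAF activation, neurofibromin speeds the return of RAS to its inactive form, and Dusp6 removes phosphate from ERK itself. Ptpn11 (SHP-2) is a phosphatase that mostly helps receptors to activate RAS, and its activating mutations, like loss of Nf1 or of Cbl function, are known from juvenile myelomonocytic leukaemia.

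The targeted transcript followed the genotype labels: Ncstn read 9.25, 9.31 and 9.26 in WT GMP against 7.79, 7.78 and 7.76 in NcstnKO GMP, a 2.82-fold difference. The sorting markers FcgammaRIII (Fcgr3) and FcgammaRIIb (Fcgr2b) were called higher in WT GMP than in LSK under all 3 scalings of the arrays. As deposited these differences were 1.10 and 0.59 (log2), and Sca1 (Ly6a) was not analysed here. Of the gate's other markers, Kit (−0.49) and Cd34 (−0.40, limma adjusted p = 0.0285) were called lower in WT GMP than in LSK on the deposited scale and after quantile normalization, but not after centring on the 75th percentile. Every NcstnKO array lay below every WT GMP array for Cd34 (−0.41, adjusted p = 0.0796) and for Kit (−0.26, 0.210), and neither was called. Sex transcripts went against the labels in 4 GMP arrays: WT GMP replicates 2 and 3 are labelled female and carried Eif2s3y without high Xist, and NcstnKO replicates 2 and 3 are labelled male and carried the reverse, so by transcripts 3 of 3 NcstnKO arrays and 1 of 3 arrays in each other group were female. The 3′ to 5′ ratio of the Actb control probe sets, a measure of RNA integrity, was 0.809 to 1.06 (log2) in NcstnKO GMP, 0.500 to 0.705 in WT GMP and 0.663 to 0.870 in LSK. Between genotypes a 2-sided exact permutation test of this ratio gave p = 0.1, and such a test cannot go lower with 3 arrays a group. Summed erythroid marker intensity ran from 41342 to 45527 in LSK, 22216 to 35569 in WT GMP and 12711 to 16520 in NcstnKO GMP. All 9 measured erythroid markers had a lower mean in NcstnKO than in WT GMP, and 6 were called lower (Klf1 −2.01 and Car2 −1.24, log2). Of all genes, 3.26% were called lower and 2.44% higher between genotypes. Of the other marker lists in that comparison, 3 of 7 macrophage markers (C1qc −1.46 and C1qa −0.91) and 2 of 6 megakaryocyte markers (Vwf −1.04 and Tubb1 −0.81) were called lower, and 1 of 9 late neutrophil markers (Camp 0.81) was called higher. Summed late neutrophil marker intensity ran from 66665 to 87966 in LSK, 33003 to 43500 in WT GMP and 46659 to 52906 in NcstnKO GMP. In sorted populations, fewer cells of a type and less RNA per cell cannot be told apart.

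In NcstnKO GMP, transcripts of Cblb, Spred2 and Ptpn11 were lower than in WT GMP, by 1.45-fold, 1.34-fold and 1.33-fold, and 0 of the 10 genes were called higher. A gene was called at a limma adjusted p under 0.05 over all 18193 genes, a rule that 5.7% of all genes met in this comparison, 3.26% as lower and 2.44% as higher in NcstnKO. An unadjusted p under 0.05 was reached by 5 of the 10 genes and by 24.4% of all genes. The 3 arrays of one genotype lay wholly below the 3 of the other for 5 of the 10 genes, all lower in NcstnKO, against 13.4% of all genes apart in that direction and 31.9% in either. Those 5 were the 3 called genes with Spred1 and Cbl. The median log2 fold change of the 10 genes was −0.24, beside 0.060 for all genes. The 10 genes were chosen with earlier results of these data known, so these comparisons are descriptions and not a test. The shares of all genes include dim genes, of which more go uncalled. With the dimmest 40% of genes left out, 1419 of 10916 genes were called, 802 as lower and 617 as higher. The median of the 10916 was 0.0017, and 4 of the 10 genes were called in that fit.

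The sequence just upstream of the 3 called genes is shown because they were lower together in NcstnKO GMP. Each stretch is the 250 bases before the gene's start in RefSeq (build GRCm38.p6), 5′ to 3′ on the gene's strand, and all 10 genes matched an entry. Spred2 lies at chr11:19924192-19924441 on the plus strand, Cblb at chr16:52031299-52031548 on the plus strand and Ptpn11 at chr5:121191398-121191647 on the minus strand. Capitals mark matches on either strand to 6 short motifs that are spelled out after the sequences; a match on the other strand shows as the reverse complement.
Spred2: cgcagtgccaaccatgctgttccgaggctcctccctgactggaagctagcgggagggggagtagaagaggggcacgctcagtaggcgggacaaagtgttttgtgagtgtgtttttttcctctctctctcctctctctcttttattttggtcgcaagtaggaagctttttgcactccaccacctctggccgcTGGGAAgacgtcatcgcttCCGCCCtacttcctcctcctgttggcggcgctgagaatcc
Cblb: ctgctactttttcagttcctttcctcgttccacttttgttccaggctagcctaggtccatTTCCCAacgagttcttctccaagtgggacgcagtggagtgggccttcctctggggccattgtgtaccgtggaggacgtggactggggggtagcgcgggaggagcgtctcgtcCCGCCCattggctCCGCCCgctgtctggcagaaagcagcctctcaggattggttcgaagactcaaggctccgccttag
Ptpn11: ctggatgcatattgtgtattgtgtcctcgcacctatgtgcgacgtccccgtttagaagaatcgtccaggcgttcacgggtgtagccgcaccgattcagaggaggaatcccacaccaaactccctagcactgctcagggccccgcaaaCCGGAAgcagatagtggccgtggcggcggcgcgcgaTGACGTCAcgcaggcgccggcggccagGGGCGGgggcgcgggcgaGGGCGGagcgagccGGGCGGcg
The letters TGGGAA, bound by RBPJ, the DNA-binding partner of Notch, occurred in Spred2 at 59 to 54 bases before the start and in Cblb at 190 to 185 bases. They were also in the promoters of Nf1 and Ptpn6, so in 4 of 10 genes, against 21.6% of 32851 promoters of the same length. The SP1 letters GGGCGG occurred in 7 of 10 genes against 32.7% of promoters. The ETS letters CCGGAA were in Cbl, Nf1 and Ptpn11, against 12% of promoters. The cyclic AMP response letters TGACGTCA were in Ptpn11 alone of the 10, at 67 to 60 bases before its start, against 1.5% of promoters. The GATA letters AGATAA were in 0 of the 10 windows, against 10% of promoters. The same held for the C/EBP letters TTGCNNAA, found in 9.6% of promoters. No motif overlapped another in these 3 windows. GC content of the 10 windows was 56.0% to 74.0%, beside a median of 52.4% over all promoters. A match of letters is a description of the window and not a binding site, and no match says only that these letters are not in it.

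**Figure D1:**
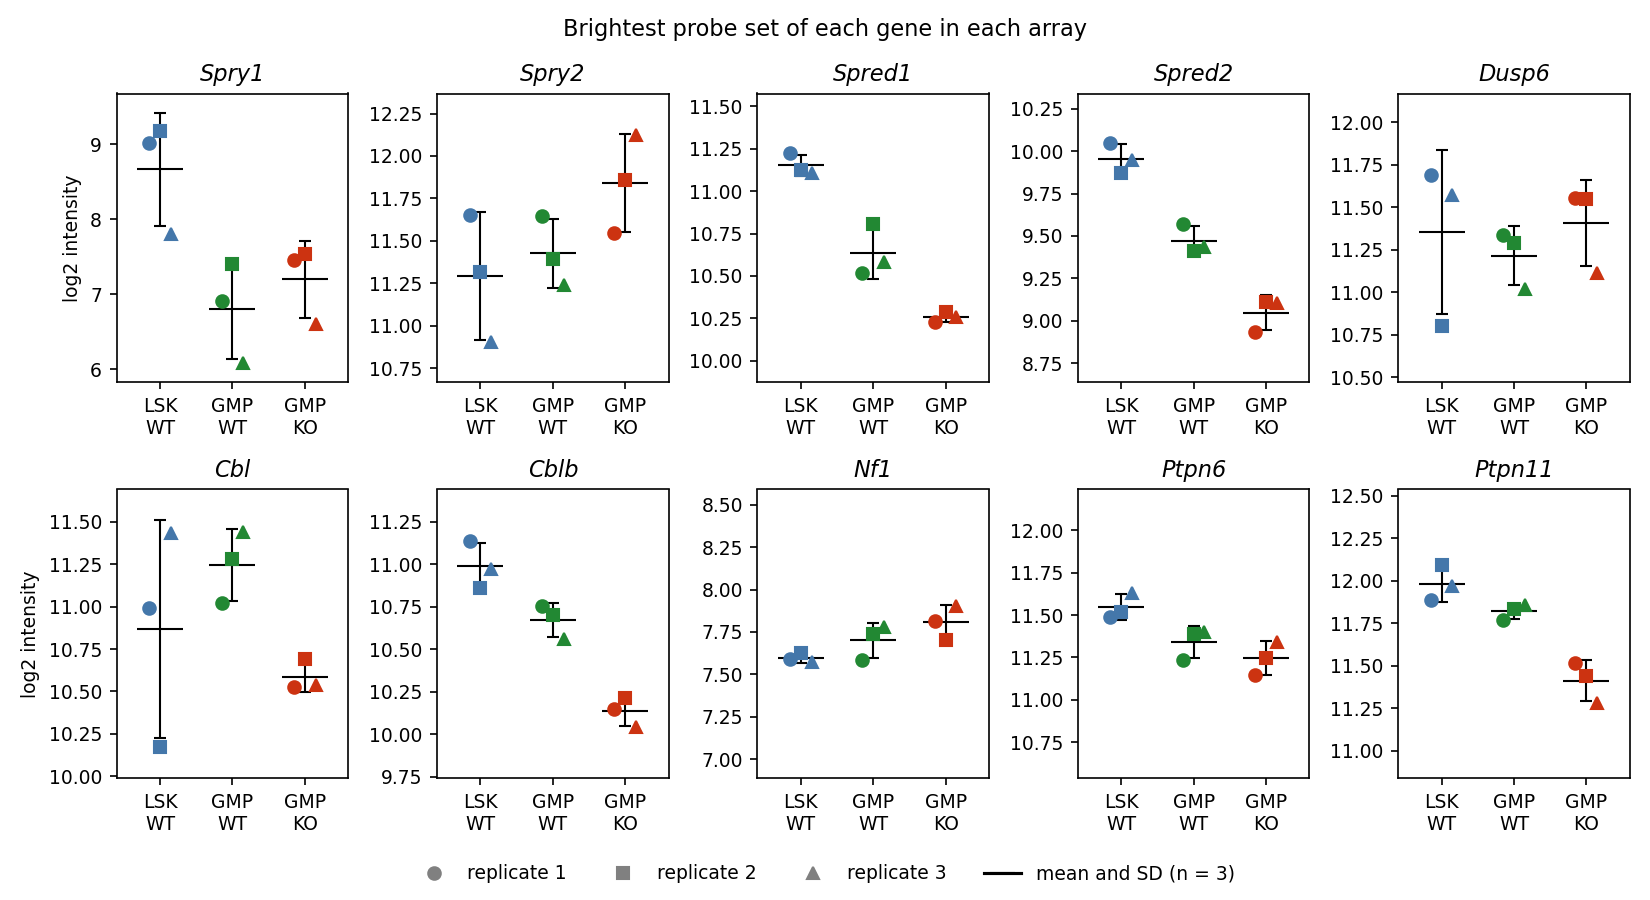
Log2 intensity of the brightest probe set of each of the 10 genes in each array, with the 3 groups on the horizontal axis, symbols for replicates and a bar for the mean and SD (n = 3). Spred1, Spred2, Cblb and Ptpn11 step down from LSK through WT GMP to NcstnKO GMP without overlap as deposited, and Spry1 is high in LSK. Of all genes, 54.6% are apart in the first step and 31.9% in the second. The first step is uncalled for Ptpn11 as deposited, and for Spred2 and Cblb after either rescaling. After centring on the 75th percentile it is uncalled for Spred1 and turns upward for Cblb and Ptpn11. The second step is uncalled for Spred1 as deposited.

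Spred proteins bind RAS and neurofibromin at the membrane and keep RAF from being activated. Spred2 (probe set 1434403_at) read 10.05, 9.87 and 9.95 in the LSK arrays, 9.57, 9.41 and 9.43 in the WT GMP arrays and 8.93, 9.11 and 9.10 in the NcstnKO GMP arrays. As deposited the 3 groups were fully separated, with means of 9.96 ± 0.0873, 9.47 ± 0.0851 and 9.05 ± 0.101 (SD, n = 3). A gap of 0.30 lay between the lowest WT GMP and the highest NcstnKO array. Of all genes, 54.6% were apart from LSK to WT GMP and 31.9% between genotypes. The step of Spred2 from LSK to WT GMP was uncalled under both other scalings of the arrays. The difference between genotypes was −0.42 (log2, SE 0.0918, limma adjusted p = 0.0388). Spred1, the paralogue whose loss causes Legius syndrome, read 11.22, 11.12 and 11.11 in the LSK arrays, 10.52, 10.80 and 10.58 in the WT GMP arrays and 10.23, 10.29 and 10.26 in the NcstnKO GMP arrays. It followed the same order without overlap, and its difference between genotypes of −0.38 (SE 0.0935) had a limma adjusted p of 0.0525 and was not called.

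Cblb and Cbl are E3 ubiquitin ligases that share a tyrosine kinase binding domain and a RING finger. Cblb (1455082_at) read 11.14, 10.86 and 10.97 in the LSK arrays, 10.76, 10.70 and 10.56 in the WT GMP arrays and 10.15, 10.22 and 10.05 in the NcstnKO GMP arrays. Its groups were also fully separated as deposited, with means of 10.99 ± 0.138, 10.67 ± 0.101 and 10.14 ± 0.0861 (SD, n = 3). The step from LSK to WT GMP, in which 54.6% of all genes were apart, was uncalled for Cblb under both other scalings. Cblb had the smallest p of the 10 genes between genotypes (−0.53, SE 0.101, limma adjusted p = 0.0282). Cbl read 10.99, 10.17 and 11.44 in the LSK arrays, 11.02, 11.28 and 11.44 in the WT GMP arrays and 10.53, 10.69 and 10.54 in the NcstnKO GMP arrays. The NcstnKO arrays lay 0.33 below the lowest WT GMP array, but the LSK arrays spread from 10.17 to 11.44, and the fit shares 1 estimate of the spread over all 9 arrays. The Cbl difference of −0.66 (95% interval −1.29 to −0.032, limma adjusted p = 0.185) was not called. It was called under 0 of 21 alternatives, with an adjusted p from 0.0532 to 0.991. With the Actb ratio held constant the difference was −0.023, and with the mean of its probe sets −0.26.

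Ptpn11 (1451225_at) read 11.88, 12.09 and 11.97 in the LSK arrays, 11.77, 11.84 and 11.86 in the WT GMP arrays and 11.51, 11.44 and 11.28 in the NcstnKO GMP arrays. WT GMP and LSK arrays lay close together, and the NcstnKO arrays stood 0.26 below the lowest WT GMP array (−0.41, SE 0.0935, limma adjusted p = 0.0429). Ptpn6, a phosphatase expressed mainly in blood cells, read 11.49, 11.52 and 11.63 in the LSK arrays, 11.24, 11.39 and 11.40 in the WT GMP arrays and 11.15, 11.25 and 11.34 in the NcstnKO GMP arrays. The genotypes overlapped in Ptpn6, with a difference of −0.10 and a 95% interval of −0.30 to 0.11.

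Sprouty genes and Dusp6 are themselves switched on by ERK in many cell types. Spry2 read 11.66, 11.32 and 10.90 in the LSK arrays, 11.65, 11.39 and 11.24 in the WT GMP arrays and 11.55, 11.86 and 12.12 in the NcstnKO GMP arrays. The genotypes overlapped, with the difference at 0.41 (95% interval −0.072 to 0.90, limma adjusted p = 0.272). Spry1 (1415874_at) read 9.02, 9.18 and 7.80 in the LSK arrays, 6.91, 7.41 and 6.09 in the WT GMP arrays and 7.46, 7.53 and 6.60 in the NcstnKO GMP arrays. Its values spread by more than 1 unit within LSK and within WT GMP, and the difference between genotypes of 0.40 had a 95% interval of −0.62 to 1.42. Dusp6 read 11.69, 10.80 and 11.57 in the LSK arrays, 11.34, 11.29 and 11.02 in the WT GMP arrays and 11.55, 11.55 and 11.12 in the NcstnKO GMP arrays. All 3 groups overlapped in Dusp6, and its difference between genotypes was 0.19 (95% interval −0.34 to 0.72).

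Nf1, the GTPase-activating protein of RAS, read 7.59, 7.63 and 7.57 in the LSK arrays, 7.59, 7.74 and 7.78 in the WT GMP arrays and 7.81, 7.70 and 7.91 in the NcstnKO GMP arrays. Its arrays spanned a narrow range in every group, and the difference between genotypes was 0.11 (95% interval −0.094 to 0.31, limma adjusted p = 0.497).

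The calls between genotypes lay close to the threshold. With 1 array left out at a time, all 3 genes stayed called without LSK replicate 2, Cblb alone without LSK replicate 1, LSK replicate 3 or NcstnKO replicate 2, and 0 of the 10 genes without WT GMP replicate 1, 2 or 3 or NcstnKO replicate 1 or 3. With any 1 array out, the differences themselves lay within these ranges: Cblb between −0.59 and −0.49, Spred2 between −0.45 and −0.36, and Ptpn11 between −0.46 and −0.34. Without the 4 arrays whose sex transcripts differ from their labels, 1 array of each genotype was left and was assumed to vary like the LSK group; Cblb was then −0.61 (adjusted p = 0.436), Spred2 −0.64 (0.378) and Ptpn11 −0.26 (0.689). With sex by transcripts as a covariate the 3 differences were −0.65, −0.52 and −0.33, while a fit that held the Actb ratio constant gave −0.49, −0.32 and −0.54, with 0 of the 10 genes called in either. Over 21 alternatives the adjusted p ran from 0.0191 to 0.436 for Cblb, 0.0247 to 0.486 for Spred2 and 0.0289 to 0.689 for Ptpn11, and the call was kept in 9, 4 and 4 of them. The part of erythroid, macrophage, megakaryocyte and neutrophil transcripts, which moved between the same groups, was not tested.

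**Figure D2:**
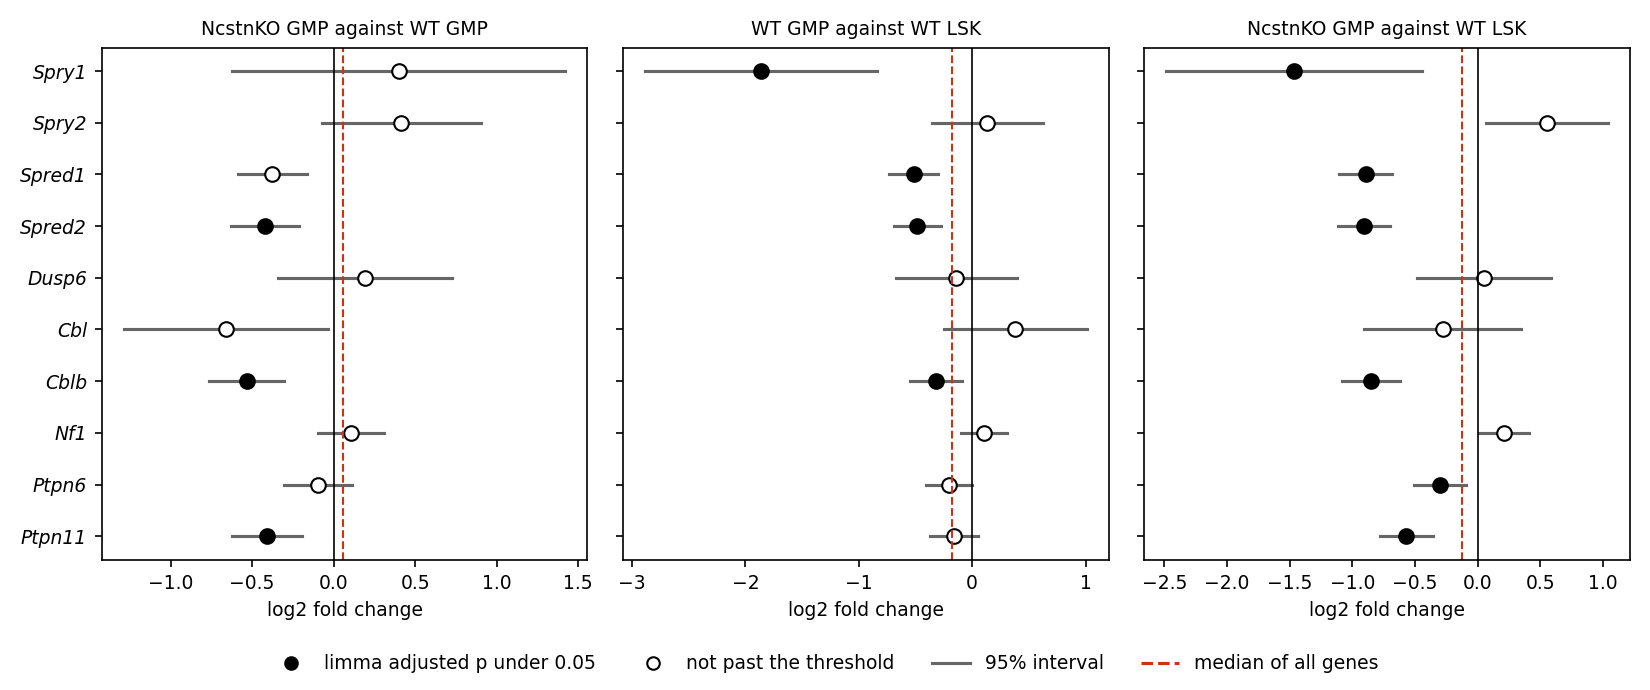
Log2 fold change of each gene in the 3 comparisons with its 95% interval, filled where the limma adjusted p is under 0.05, and a dashed line at the median of all genes. Cblb, Spred2 and Ptpn11 are filled and left of 0 between genotypes; each panel has its own scale, and in the panels against LSK the position of 0 depends on the scaling of the arrays.

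The remaining probe sets gave a second reading of most genes. Of the 31 probe sets, 24 were lower and 7 higher in the NcstnKO mean than in the WT GMP mean. In a fit over all 45037 probe sets, 2 of the 31 were called, both lower (of all probe sets 1.75% were called, 1.15% as lower and 0.604% as higher): 1452911_at of Spred1 at −0.51 (SE 0.0993, limma adjusted p = 0.0475) and 1455082_at of Cblb, the brightest of its gene, at −0.53 (adjusted p = 0.0475). The genotypes did not overlap in 11 of the 31, all lower in NcstnKO, against 27.2% of all probe sets apart in either direction and 12.3% lower. These 11 came from the same 5 genes whose brightest probe sets were apart: 4 from Spred1, 2 each from Spred2, Cblb and Ptpn11, and 1 from Cbl. Probe sets of 1 gene were read on the same arrays, so such counts are not counts of independent genes. The 7 Spred1 probe sets above background had negative differences, from −0.76 to −0.15, and the other, 1443652_x_at, lay at background on every array. All 5 Spred2 probe sets were also negative, with the brightest at −0.42, 1436892_at at −0.89 (SE 0.268, adjusted p = 0.119) and 1423001_at, above background on 8 of 9 arrays, at −0.00091. The other 2 Cblb probe sets read −0.23 and −0.21, and the other 2 of Ptpn11 −0.67 and −0.058, all uncalled. Probe sets of 1 gene disagreed in sign for Nf1, at 0.11 for the brightest and −0.34 and −0.43 for the other 2, the last of which was above background on 6 of 9 arrays; for Cbl and Ptpn6, 1 dimmer probe set each was positive, at 0.076 and 0.031. With each gene taken as the mean of its probe sets, 0 of the 10 genes were called between genotypes, and Cblb, Spred2 and Ptpn11 were at −0.33, −0.32 and −0.38.

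**Figure D3:**
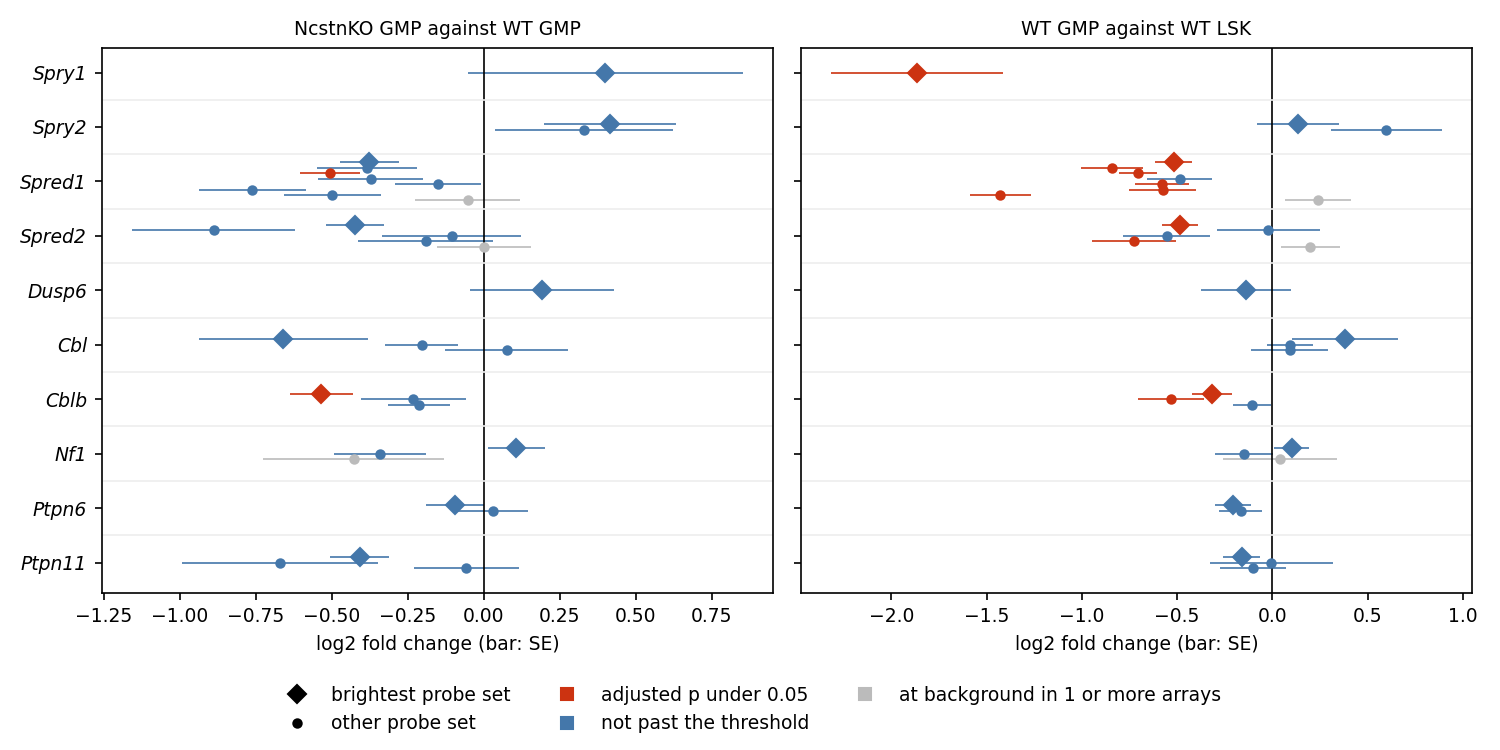
Log2 fold change of all 31 probe sets by gene in both panels, with SE bars, diamonds for the brightest probe set of a gene, red for a limma adjusted p under 0.05 over all probe sets and grey for probe sets at background on 1 or more arrays. The Spred1 probe sets above background are all left of 0 between genotypes, whereas those of Nf1 lie on both sides; in the panel against LSK the position of 0 depends on the scaling of the arrays.

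From WT LSK to WT GMP, the step from the stem and multipotent fraction to the committed myeloid precursor, Spry1 was 3.64-fold lower, and Spred1, Spred2 and Cblb were lower by 1.43-fold, 1.40-fold and 1.25-fold on the deposited scale. These 4 of 10 genes were called lower and 0 higher by limma, next to 38% of all genes called, 30.5% as lower and 7.48% as higher, so the share called was near that of all genes. Groups did not overlap for 6 of the 10, all lower in GMP, against 54.6% of all genes apart in either direction and 41.5% lower. The median log2 fold change was −0.18 for the 10 genes and −0.18 for all genes.

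Spry1 fell from 8.66 ± 0.754 to 6.80 ± 0.666 (SD, n = 3), a difference of −1.86 (95% interval −2.89 to −0.84 in the unpaired fit, limma adjusted p = 0.0118), or −1.69 relative to the median of all genes. It was called under all 3 scalings, at −1.37 with quantile normalization and −1.52 with arrays centred on the 75th percentile. Spred1 differed by −0.52 (SE 0.0935, limma adjusted p = 0.00304) and Spred2 by −0.48 (SE 0.0918, 0.00384). Relative to the median of all genes these were −0.34 and −0.31. Cblb differed by −0.32 (SE 0.101, limma adjusted p = 0.0358), or −0.14 relative to that median, and was uncalled without LSK replicate 1 or 3 or WT GMP replicate 1, 2 or 3 (adjusted p from 0.0509 to 0.118). Of the uncalled genes, Ptpn6 (−0.20) and Ptpn11 (−0.16) were lower in every WT GMP array than in any LSK array, Spry2 (0.13), Cbl (0.38) and Nf1 (0.10) had positive differences with overlap, and Dusp6 differed by −0.14 (95% interval −0.67 to 0.39).

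The LSK arrays were brighter as deposited, with a median intensity of 98.3 to 103 against 65.4 to 68.6 in the GMP arrays, and rescaling moved the comparisons with LSK. Joint normalization of the 9 arrays is not stated in the sources used here, so a fold between LSK and GMP on the deposited scale may hold a difference in scale between the arrays. The median log2 fold change of all genes from LSK to WT GMP was −0.18 on the deposited scale, 0.051 with quantile normalization and 0.17 with each array centred on its 75th percentile, and the share of called genes that were higher was 19.7%, 56.3% and 69.5%. Spred1 was called after quantile normalization (−0.38) and not after centring (−0.17), whereas Spred2 (−0.20 and −0.14) and Cblb (−0.16 and 0.029) were called in neither. Nf1, at 0.10 as deposited, was called higher in WT GMP after both, at 0.67 and 0.45. Centring turned Cblb, Dusp6, Ptpn6 and Ptpn11 from negative to positive. The comparison of genotypes moved less: the median of all genes was 0.060, 0.039 and 0.092, the share of calls that were higher was 42.7%, 48.6% and 55.7%, Cblb was called under all 3 scalings, and Spred2 and Ptpn11 were called on the deposited and centred scales but not after quantile normalization (−0.38, adjusted p = 0.0599, and −0.38, 0.0654). Markers of other cells moved between LSK and WT GMP as well, where 30.5% of all genes were called lower and 7.48% higher as deposited. As deposited, 8 of 9 late neutrophil, 5 of 5 B cell, 4 of 6 T and NK cell, 4 of 6 megakaryocyte, 5 of 9 erythroid and 2 of 7 macrophage markers were called lower, and 7 of 7 mast cell, basophil and eosinophil markers and 1 T and NK cell marker, Nkg7 (0.97), were called higher. Quantile normalization gave 8, 3, 3, 2, 3 and 0 lower in the same order, with 1 megakaryocyte marker higher, and centring gave 6, 3, 4, 2, 3 and 1 lower, with 1 erythroid marker higher. The 7 mast cell, basophil and eosinophil markers and Nkg7 were called higher under both. The part of these markers in the result was not tested. Without the 4 arrays of differing sex transcripts 0 of the 10 genes were called from LSK to WT GMP, with Spry1 at −1.76 (adjusted p = 0.131), Spred1 at −0.63 (0.0526), Spred2 at −0.39 (0.154) and Cblb at −0.23 (0.391). With the Actb ratio held constant, Spred1 and Spred2 were called and Spry1 was at −1.63 (0.0720).

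**Figure D4:**
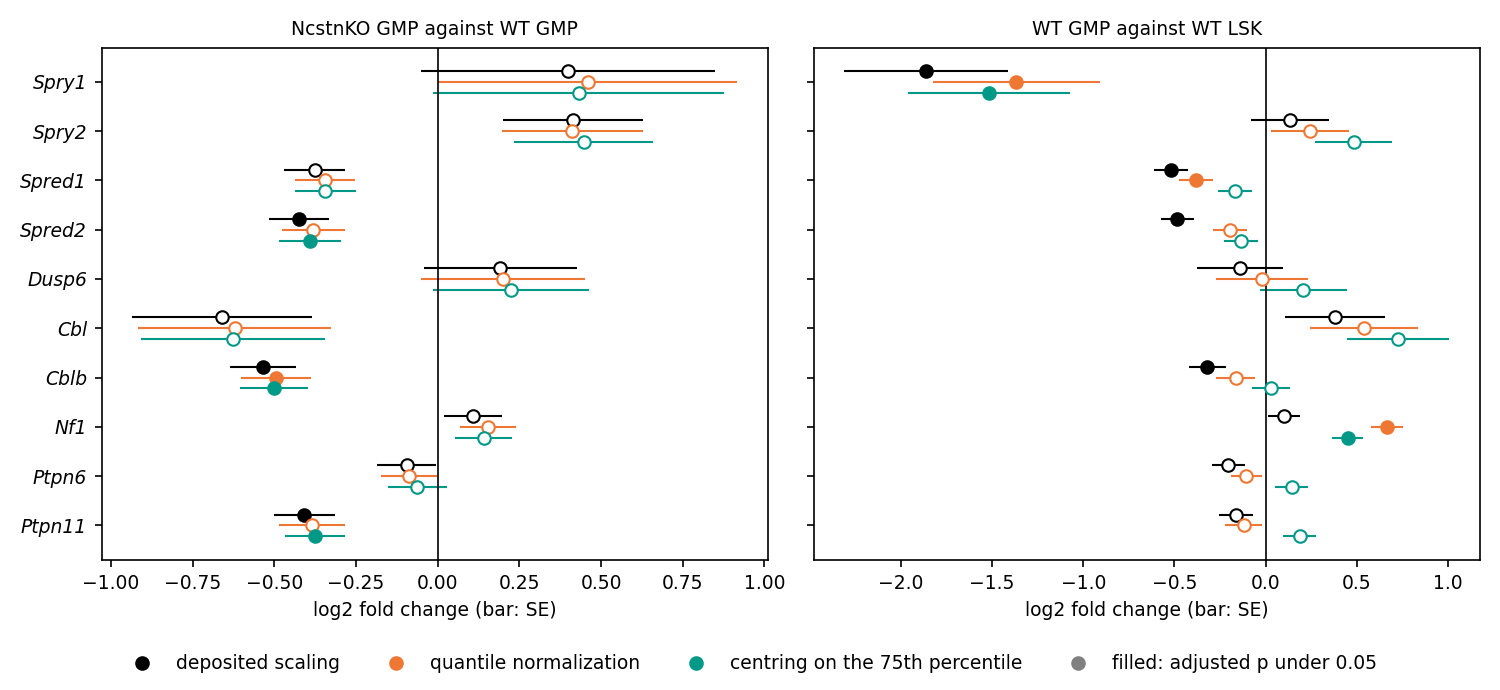
Log2 fold change of each gene under 3 scalings of the arrays (deposited, quantile normalization, centring on the 75th percentile), with SE bars and filled symbols where the limma adjusted p is under 0.05. The 3 values of a gene lie close together between genotypes, whereas from LSK to WT GMP they shift to the right after rescaling. Cblb, Dusp6, Ptpn6 and Ptpn11 cross 0 after centring on the 75th percentile.

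Within Spred1 the probe sets differed in size. From LSK to WT GMP, 11 of the 31 were called lower and 0 higher (of all probe sets 34.9% were called, 28.8% as lower and 6.04% as higher), 6 of them from Spred1, where 1445228_at differed by −1.43 (SE 0.161) and the brightest by −0.52. The others were the single Spry1 probe set, 2 of 5 for Spred2 and 2 of 3 for Cblb. Groups were apart in 17 of the 31, of which 16 were lower in WT GMP, and 51.8% of all probe sets were apart in either direction, 40.3% lower and 11.5% higher. The 1 that was higher was the Spred1 probe set at background on every array.

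NcstnKO GMP set against WT LSK combine the cell type and the genotype, and this comparison shares its arrays with the other two, so its values are not a separate line of evidence. In this comparison 6 of 10 genes were called lower and 0 higher by limma, against 46.8% of all genes called, 32.3% as lower and 14.6% as higher. Groups were apart for 6 genes lower and 1 (Nf1) higher, against 56.4% of all genes apart, 37.2% lower and 19.2% higher. Spred2 differed by −0.91 (SE 0.0918), Spred1 by −0.89 (0.0935), Cblb by −0.85 (0.101) and Ptpn11 by −0.57 (0.0935), and relative to the median of all genes of −0.12 these were −0.78, −0.77, −0.73 and −0.45. Spred1, Spred2 and Cblb were called under all 3 scalings; Ptpn11 was not called after centring on the 75th percentile (−0.19, adjusted p = 0.103). Spry1 (−1.46, limma adjusted p = 0.0257) and Ptpn6 (−0.30, 0.0243) were called as deposited and under neither other scaling; Spry1 was also uncalled without LSK replicate 1 or 2 or NcstnKO replicate 3, and Ptpn6 without LSK replicate 3 or NcstnKO replicate 1 or 2. Spry2 (0.55, 0.0628) and Nf1 (0.21, 0.0811) were uncalled as deposited and called higher with quantile normalization (0.66 and 0.82) and with centring (0.93 and 0.59), and Spry2 also passed without LSK replicate 1 or NcstnKO replicate 1. For Cbl, LSK replicate 2 moved the value: it was −0.28 (adjusted p = 0.434) on all arrays and −0.63 (0.0205) without LSK replicate 2. Without the 4 arrays of differing sex transcripts, Spred1, Spred2 and Cblb were still called, at −0.92, −1.02 and −0.84, whereas Spry1 (−1.20), Ptpn6 (−0.40) and Ptpn11 (−0.47) were not.

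Among the 31 probe sets, 18 were called lower and 1 higher in NcstnKO GMP than in LSK (of all probe sets 43.5% were called, 32.1% as lower and 11.4% as higher). The lower ones included 7 of 8 for Spred1, 4 of 5 for Spred2 and 3 of 3 for Cblb, with 1445228_at of Spred1 at −1.93. The higher one was the dimmer Spry2 probe set, 1421656_at, at 0.93 (limma adjusted p = 0.0313), where the brightest gave 0.55. Nf1 again divided, with 1441523_at called lower at −0.49 (adjusted p = 0.0285) and the brightest at 0.21.

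Spry1 had the widest range of group means among the 10 genes, at 1.86 (log2), and Spred2 the next widest, at 0.91. Across the 9 arrays, the genes whose log2 intensity correlated most with Spry1 were Nr4a1, a nuclear receptor induced early after stimulation (Pearson r = 0.988), the ERK phosphatase gene Dusp2 (r = 0.984) and Maff, a small Maf transcription factor (r = 0.981), and 317 genes had r above 0.9. Nr4a1 read 11.53, 11.68 and 9.12 in LSK, 8.14, 8.90 and 6.31 in WT GMP and 9.01, 8.37 and 7.08 in NcstnKO GMP. In each group the array numbered 3 was the lowest for Spry1, Nr4a1, Dusp2 and Maff, and the differences within groups were of the same order as those between them. The genes most like Spred2 were Mknk2, a kinase activated by ERK and p38 (r = 0.990), the Wnt receptor gene Fzd7 (r = 0.987) and Fbxo11, a substrate receptor of a ubiquitin ligase (r = 0.986), among 1176 genes with r above 0.9. The arrays share 3 group means and their scaling, so these correlations describe the 9 arrays.

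**Figure D5:**
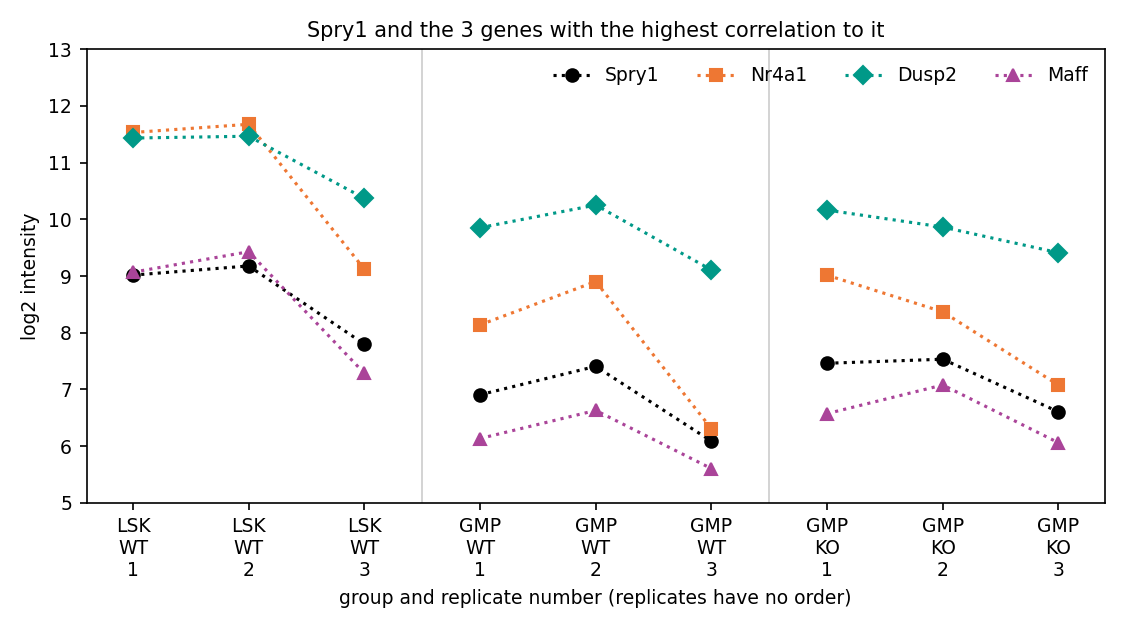
Log2 intensity of Spry1, Nr4a1, Dusp2 and Maff in each of the 9 arrays, by group and replicate number, with dotted lines that join the arrays of a group for legibility. LSK replicates 1 and 2 are highest for all 4 genes, and array 3 is the lowest of its group for each of them.

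Other genes were read from lists of 28 further brakes of RAS or kinase signalling, 7 cytokine receptors, 19 core components from RAS to ERK and 12 transcripts that respond to ERK. Not all of the 28 act between RAS and ERK. Of the 28 further brakes, 1 was called between genotypes: Inpp5d, the phosphatase SHIP1 that removes a phosphate from PIP3, was lower in NcstnKO GMP (−0.43, SE 0.0989, limma adjusted p = 0.0443) and was uncalled after either rescaling. Of all genes 5.7% were called in this comparison, 3.26% as lower, and the median of the 28 was −0.0067 beside 0.060 for all genes. From LSK to WT GMP, 15 of the 28 were called lower and 0 higher, against 30.5% and 7.48% of all genes. The median of the 28 was −0.57 there, beside −0.18 for all genes. The smallest p-values belonged to Dab2ip, a GTPase-activating protein of RAS (−1.24), Dusp16, a phosphatase of JNK and p38 (−2.23), and Dok2, an adaptor that recruits RAS GTPase-activating protein (−2.12). The other scalings also gave more lower than higher calls, with 13 lower and 1 higher (median −0.43) under quantile normalization and 9 lower and 5 higher (median −0.22) under centring. Of all 18193 genes, 2797 were called lower and 3607 higher under quantile normalization, and 2616 lower and 5949 higher under centring. Spry3 lay at background in every group and Spred3 in both GMP groups, so neither gave a level there. In NcstnKO GMP against LSK 17 of the 28 were called lower, among them Dab2ip (−1.64), Dusp16 (−2.46) and Sh2b3 (−1.43), an adaptor that restrains Kit and JAK2, and 1, the JAK phosphatase gene Ptpn2, was called higher (0.39). Quantile normalization gave 16 lower and 5 higher there, and centring 14 lower and 7 higher. Of all genes 32.3% were called lower and 14.6% higher there as deposited. Over all 18193 genes, quantile normalization gave 3810 lower and 5439 higher, and centring 3205 lower and 7960 higher.

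Of the 7 receptors, 6 were measured, and 0 were called between genotypes by limma or reached an unadjusted p under 0.05. From LSK to WT GMP, Flt3, the receptor of lymphoid-primed progenitors, was lower (−2.43), as was Kit, the stem cell factor receptor (−0.49), and Csf1r, the macrophage colony-stimulating factor receptor, was higher (1.11). Flt3 and Csf1r were called in the same direction under all 3 scalings, and Kit was uncalled after centring. Csf2ra and Csf2rb, subunits of the GM-CSF receptor, were at 0.24 and 0.44 as deposited, uncalled, and were called higher in WT GMP under both other scalings. In NcstnKO GMP against LSK, Flt3 (−2.04) and Kit (−0.75) were called lower, also under both other scalings. Csf2rb was uncalled there as deposited and called higher under both other scalings, and Csf1r and Csf2ra were called higher after centring.

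Of the 19 core components 14 were measured, and the others were not analysed here. Between genotypes 1 was called, the RAF kinase gene Braf, lower in NcstnKO GMP (−0.53, SE 0.117, limma adjusted p = 0.0392), and it was called lower under all 3 scalings. The median of the 14 was −0.15, beside 0.060 for all genes, of which 5.7% were called and 3.26% were called lower. From LSK to WT GMP, where 7.48% of all genes were called higher and 30.5% lower, Rasgrp2 (0.86) and Gab2 (0.48) were higher. Rasgrp4 (−1.45), Ksr1 (−0.81) and Sos1 (−0.52) were lower. Rasgrp2 and Rasgrp4 are exchange factors of RAS-family proteins that respond to diacylglycerol or calcium, and Ksr1 is a scaffold of the RAF to ERK cascade. These counts depended on the scaling: quantile normalization gave 3 higher and 2 lower, and centring gave 8 higher and 2 lower, with Ksr1 uncalled under the first and Sos1 under the second. Of all 18193 genes, 3607 were called higher and 2797 lower under the first, and 5949 higher and 2616 lower under the second. In NcstnKO GMP against LSK 1 was higher (Rasgrp2, 1.04) and 6 were lower, against 14.6% and 32.3% of all genes. The smallest p among the lower ones were for the exchange factor gene Sos1 (−0.98) and Braf (−0.69), which were called lower under all 3 scalings. Quantile normalization gave 2 higher and 3 lower here, and the balance turned only under centring, with 7 higher and 3 lower.

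The 12 transcripts that respond to ERK did not pass the test between genotypes: limma called 0, and 1 had an unadjusted p under 0.05. Their median was 0.061, beside 0.060 for all genes. From LSK to WT GMP 6 of the 12 were called lower and 0 higher, against 30.5% and 7.48% of all genes. The median of the 12 was −0.65 there, and the calls were led by Ccnd1, which encodes cyclin D1 (−1.40), Phlda1 (−1.46) and the early response gene Egr2 (−2.04). After either rescaling 3 were lower and 1 higher. Over all genes, quantile normalization gave 2797 lower and 3607 higher, and centring 2616 lower and 5949 higher. In NcstnKO GMP against LSK 4 were lower, against 32.3% of all genes. Among them Ccnd1 was at −1.47, the ETS factor gene Etv5 at −1.52 and Phlda1 at −1.42, and these 3 were called lower under both other scalings as well.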

How the data were processed

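RNA from sorted cells was amplified from 5 ng and labelled with biotin, per the labels' protocols. The deposited values are linear intensity values per probe set, from 3.79 to 23176, and per the submitters' processing notes RMA made them (no version given); joint normalization of the 9 arrays is not stated in the sources used here. Their log2 was taken. Of 45101 probe sets, 64 controls were left out of the tests, and 34945 had 1 gene symbol in GEO's platform annotation, 932 several and 9160 none. The brightest probe set per symbol gave 18193 genes. Group means of the 3 groups were fitted to the 9 arrays with lmFit and eBayes (R 4.3.3, limma 3.58.1, 2-sided tests, Benjamini-Hochberg adjustment), with 6 residual degrees of freedom. Adjusted p-values come from this fit, or, where a probe set or an alternative is named, from the limma fit over all probe sets or under that alternative. P-values measure the spread between these samples, and the number of arrays limits precision. Background was the 95th percentile of 27 unspiked bacterial controls per array (log2 4.30 to 4.57), a limit chosen after the data were examined. The fit was tested on simulated data with independent normal values, which hold no effect of sex or RNA integrity shared between arrays. For LSK and WT GMP, arrays with the same number departed together from the means of their groups (correlations of 0.219, 0.238 and 0.291), so these numbers were taken as pairing them, from the data and not the labels. The main fit leaves this pairing out, so the intervals and p-values given from LSK to WT GMP are unpaired. A replicate block was fitted as an alternative, with 6627 of all genes called in that comparison beside 6910 without it. The members and lists were chosen with earlier results of these data known. Named were all 10 genes, up to 3 called genes per pathway list and 2 per marker list with the smallest p in a comparison, Ncstn, and 3 genes most correlated with each of Spry1 and Spred2. List members beyond that rule, and Xist and Eif2s3y, were chosen after their values were seen. These list members were Sos1 and Gab2 from LSK to WT GMP, Ptpn2 and Csf1r from LSK to NcstnKO GMP, Csf2ra, Csf2rb, Nkg7, Spry3, Spred3 and gate markers past the rule. Promoters came from RefSeq (GRCm38.p6). Alternatives were quantile normalization, centring on the 75th percentile, adding 16 before log2, mean of probe sets, a fit per probe set, leaving out the dimmest 40% of genes, fitting 2 groups, covariates, a replicate block and leaving out arrays.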

Additional observations from a re-analysis of the deposited data

How the results depend on the processing

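With 3 arrays a group, calls near the threshold were not stable. Between genotypes 3 genes were called, and 4 after adding 16 or leaving out the dimmest 40% of genes, where Spred1 joined (adjusted p = 0.0348 and 0.0353). The count was 1 after quantile normalization or with every probe set fitted on its own, and 0 with the mean of probe sets, the 2 groups alone, labelled sex, transcript sex or the Actb ratio as covariates, or without the 4 arrays of differing sex transcripts (an alternative chosen after seeing the data). With the replicate block it was 0, with Cblb, Spred2 and Ptpn11 at adjusted p = 0.0507, 0.0722 and 0.0729; same-numbered WT and NcstnKO GMP arrays did not deviate together (correlations of −0.092, 0.0037 and 0.022), and the block changed no call from LSK to WT GMP. Leaving out 1 array gave 0 to 3 calls between genotypes, 3 to 4 from LSK to WT GMP and 5 to 6 from LSK to NcstnKO GMP. Over all genes 1037 were called between genotypes, 370 with the block, 6 with the 2 groups alone, 2 with either sex covariate, 0 with the Actb ratio, 1 without the 4 arrays and 2 to 845 with 1 array left out. From LSK to WT GMP 4 genes were called, 2 after centring on the 75th percentile (1 higher), 2 with the Actb ratio and 0 without the 4 arrays; from LSK to NcstnKO GMP 6 were called and 3 without the 4 arrays. Signs turned as follows, the cause not tested. After centring, from LSK to WT GMP, Dusp6 was 0.21, Cblb 0.029, Ptpn6 0.14 and Ptpn11 0.19, and from LSK to NcstnKO GMP Cbl was 0.10 and Ptpn6 0.081. With the mean of probe sets Nf1 was −0.22 between genotypes, −0.0016 from LSK to WT GMP and −0.22 to NcstnKO GMP. With transcript sex Dusp6 was −0.037 between genotypes and −0.18 from LSK to NcstnKO GMP. With the Actb ratio Spry1 was −0.051 and Ptpn6 0.070 between genotypes and Cbl 0.019 from LSK to NcstnKO GMP. Without the 4 arrays Spry2 was −0.10 between genotypes and Nf1 −0.011 from LSK to WT GMP. With 1 array out, from LSK to WT GMP Spry2 ran from −0.059 (without LSK replicate 3) to 0.32 and Dusp6 from −0.42 to 0.027 (without LSK replicate 1); from LSK to NcstnKO GMP Dusp6 ran from −0.22 (without LSK replicate 2; −0.02 without NcstnKO replicate 1 or 2) to 0.22 and Cbl from −0.63 to 0.0051 (without LSK replicate 3). Of 210 values of single genes between genotypes 157 kept their direction and side of the threshold, 46 lost their call, 2 gained one and 5 turned sign. Only called genes could lose a call, and the 46 were 12 of 21 for Cblb and 17 of 21 each for Spred2 and Ptpn11. From LSK to WT GMP 184 were kept, 16 lost their call, 2 gained one and 8 turned sign. From LSK to NcstnKO GMP these were 176, 16, 9 and 9. Probe sets at background limit 3 of 31 readings.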
